A study of Homo sapiens with 18 samples.

Results

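The 7 genes described here are 5 metallothioneins (MT1E, ENSG00000169715; MT1F, ENSG00000198417; MT1G, ENSG00000125144; MT1X, ENSG00000187193; MT2A, ENSG00000125148), the zinc sensor MTF1 (ENSG00000188786) and the zinc exporter SLC30A1 (ENSG00000170385), found by symbol among 60683 gene IDs. Of these 7 genes 6 passed the filter on low counts and were tested with 18159 genes in all, and MT1G did not. The cells are Cal27, an established human line of oral squamous cell carcinoma from the tongue, kept for 24 hours in 1 of 3 media. High-glucose DMEM was the first, a glucose-deprived medium the second, and the first medium carrying 2-DG (2-deoxyglucose, which blocks glycolysis) at 5 mM the third. Each medium was used with 10 nM recombinant human CGRP, a neuropeptide of sensory nerves, or with control medium, in 3 independent repetitions each. In the design text TG stands for CGRP and capTG for its control, which is followed here; treatment with CM, a term left undefined, is what the growth protocol records.

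Metallothioneins are small cysteine-rich proteins that bind zinc, copper and cadmium. When free zinc rises in a cell, the zinc-finger factor MTF1 moves onto metal response elements in DNA and raises metallothionein genes and SLC30A1, which carries zinc out across the plasma membrane. Metallothionein genes also respond to glucocorticoids and to oxidative stress, and several are known to be silenced in carcinomas. All 5 metallothioneins of this set lie in one cluster on chromosome 16, in the order MT2A, MT1E, MT1F, MT1G and MT1X with other family members between them. MTF1 and SLC30A1 lie on chromosome 1.

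The core of the metal response element is TGCACNC or TGCGCNC, and it was searched on both strands in the 250 bases before the start site. The promoters of 4 of the 7 genes matched by symbol in RefSeq (GRCh38.p14), and 3 are shown because they differ in how often the core occurs. Capitals mark each match, and a match on the minus strand reads as its reverse complement. The MT2A promoter is chr16:56608334-56608583 on the plus strand, that of MT1X is chr16:56682220-56682469 on the plus strand, and that of SLC30A1 is chr1:211579162-211579411 on the minus strand.
MT2A: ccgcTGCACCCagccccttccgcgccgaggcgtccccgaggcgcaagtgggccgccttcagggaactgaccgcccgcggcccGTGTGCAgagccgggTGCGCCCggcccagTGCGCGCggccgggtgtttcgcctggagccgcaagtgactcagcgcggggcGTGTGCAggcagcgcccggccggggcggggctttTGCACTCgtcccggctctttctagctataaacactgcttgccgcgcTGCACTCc
MT1X: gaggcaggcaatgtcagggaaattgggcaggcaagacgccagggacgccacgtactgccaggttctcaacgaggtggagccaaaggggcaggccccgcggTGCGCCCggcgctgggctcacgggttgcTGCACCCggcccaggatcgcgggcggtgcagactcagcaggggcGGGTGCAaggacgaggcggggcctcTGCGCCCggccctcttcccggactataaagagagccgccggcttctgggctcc
SLC30A1: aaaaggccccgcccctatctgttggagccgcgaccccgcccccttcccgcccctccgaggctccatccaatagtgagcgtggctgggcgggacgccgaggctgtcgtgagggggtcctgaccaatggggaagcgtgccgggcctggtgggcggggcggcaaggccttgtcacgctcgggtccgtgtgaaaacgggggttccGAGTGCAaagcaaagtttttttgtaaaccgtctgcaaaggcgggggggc
The MT2A promoter held 7 matches, that of MT1X 4 and that of SLC30A1 1, at 49 bases before the start. The window of MTF1 held 0 matches. Of other family promoters that were searched, that of MT1H held 8 matches and those of MT1B and MT4 3 each. MT1H had 3 counts over all libraries, and MT1B and MT4 had 0. Of 35116 promoters of this length, 24.8% held at least 1 match, 0.370% at least 4 and 0.0313% at least 7. These are matches of letters, and binding was not measured.

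The libraries held 28038260 to 32661768 counts. The markers of squamous epithelium (KRT5, KRT14, KRT17 and 5 others) summed to group means of 3569 to 4992 CPM (read counts scaled by library size), so the defining markers of the labelled cell type were present. Among markers of other cells, the endothelial list summed to 2.20 to 24.8 CPM in the control groups and 3.52 to 43.4 CPM under CGRP. The neuron and Schwann cell list summed to 3.55 to 13.0 CPM in the controls and 5.60 to 22.5 CPM under CGRP, and both lists were lowest in deprived medium. Leukocyte markers summed to 2.29, 0.0671 and 1.99 CPM in the high-glucose, deprived and 2-DG controls and to 3.85, 0.373 and 3.69 CPM with CGRP, without overlap of libraries in any medium. Of these, PTPRC stood at 0.641 CPM in 2-DG medium with CGRP and at 0.0111 CPM or less in the other groups. Fibroblast markers summed to 24.9, 10.9 and 17.8 CPM in the same controls and to 25.5, 14.0 and 23.4 CPM with CGRP, without overlap in 2-DG medium only, and no gene of these lists was at 0 in all 18 libraries. Their part in the results was not tested. 2 of the libraries stood apart from their group mates on the second principal component (7.39% of the variance). Deprived CGRP replicate 2 lay at 59.3 and 2-DG control replicate 2 at 34.6, where the others lay between -14.8 and 7.33. In these libraries genes under 1000 bases of exon were higher than in their group mates, by medians of 0.30 and 0.19 on the log2 scale, and genes over 5000 bases were lower, by -0.22 and -0.15. Tests of the 7 genes that rest on them are mostly given with and without them, as are counts of genes that passed. Group means, and fold changes of most other genes, are given from all 18 libraries only.

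Transcript levels spanned a wide range. In high glucose without CGRP MT2A stood at 422 CPM per kilobase of exon, MT1E at 100.1, MTF1 at 4.23, SLC30A1 at 2.86, MT1F at 1.93 and MT1X at 0.807. MT2A was above MT1E in all 18 libraries. SLC30A1 exceeded MTF1 on this scale in deprived medium, without CGRP (12.2 against 5.66 CPM per kilobase) and with it (10.4 against 4.39). The libraries of the pair overlapped in high glucose with CGRP (3.46 against 3.83) and in both 2-DG groups. MT1G had 6 counts in all, namely 1 in a high-glucose CGRP library, 2 in a deprived control library and 3 in deprived CGRP replicate 2, and 0 in the others. That is at or under the limit of 3 counts per library that a count of 0 allows, so no comparison of MT1G was made. Of 13 metallothionein genes in the family list 5 were tested, including MT1M, which is no member of the set. Cal27 is 1 cell line, and in bulk RNA fewer expressing cells and less RNA per cell cannot be told apart.

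**Figure D1:**
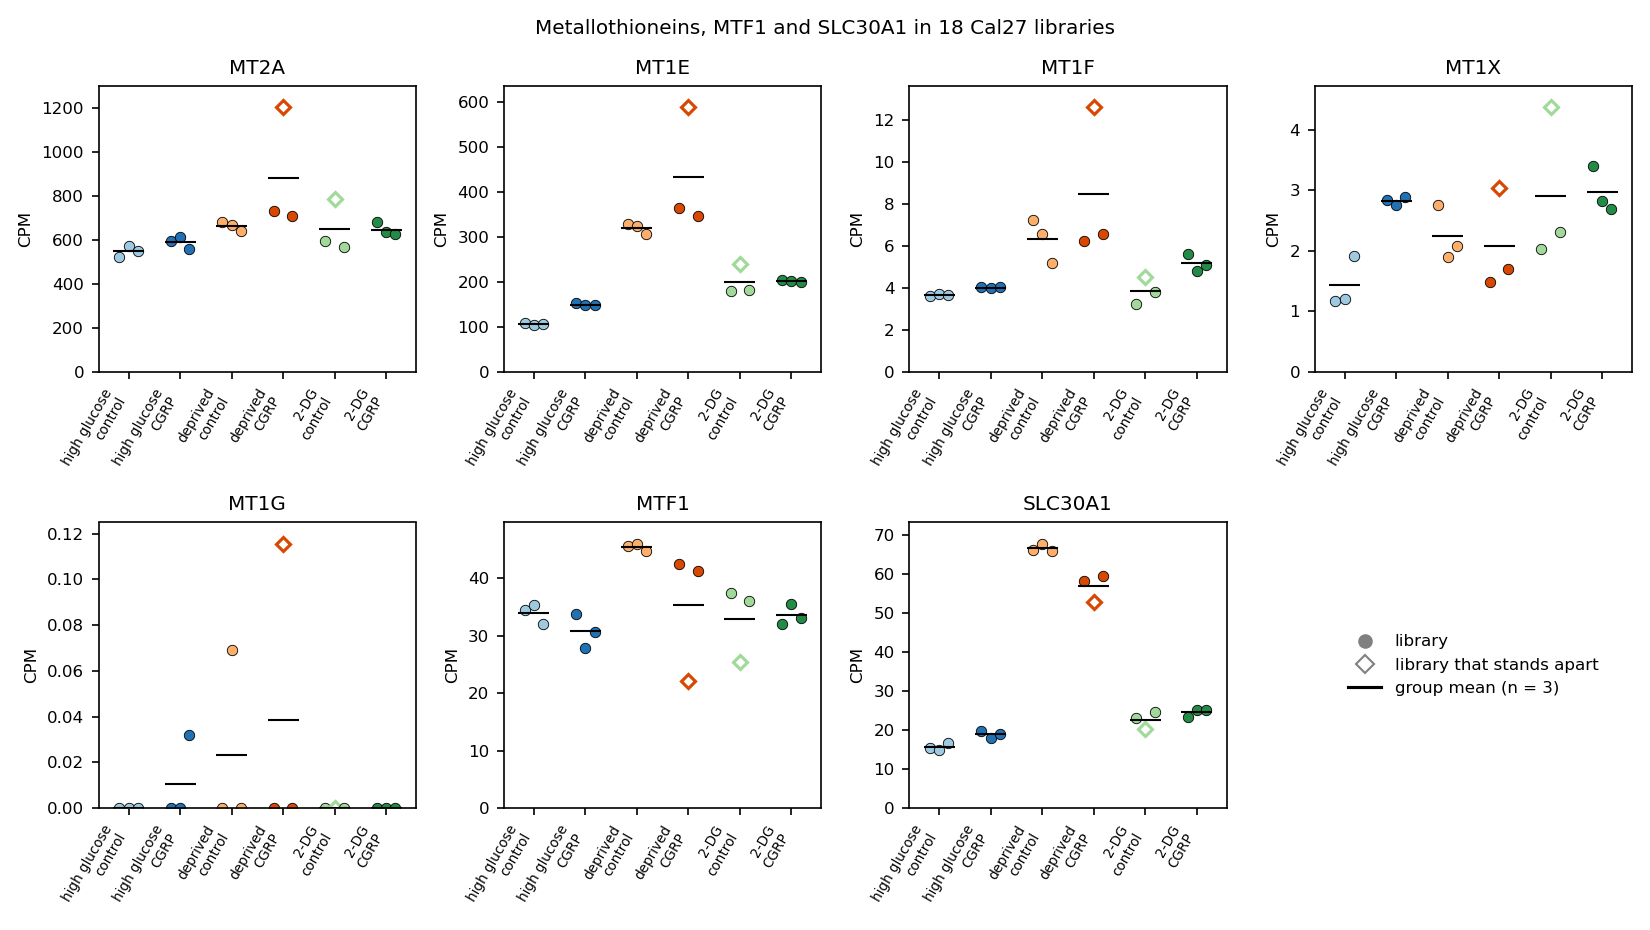
CPM (vertical axes, each from 0) of the 7 genes in every library, by medium and treatment (horizontal axis); points are libraries, diamonds the 2 libraries that stand apart, and bars group means (n = 3). SLC30A1 lies between 52.8 and 67.8 CPM in deprived medium and at 25.2 CPM or less elsewhere, and the diamonds are the highest libraries of their groups for MT2A, MT1E, MT1F and MT1X and the lowest for MTF1 and SLC30A1.

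Glucose deprivation without CGRP raised 3 of the 7 genes: SLC30A1, MT1E and MT1F (edgeR quasi-likelihood test, Benjamini-Hochberg adjustment over all tested genes, threshold 0.05). In the same comparison 60.6% of all tested genes passed, 31.0% upward, so 3 of 7 is near the background. SLC30A1 had the largest difference of the 7. Without the 2 libraries that stand apart all 6 tested genes passed upward, where 36.1% of all genes did.

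SLC30A1, the exporter, read 15.4, 14.99 and 16.6 CPM in the high-glucose control libraries and 66.2, 67.8 and 66.0 CPM in the deprived controls. The groups did not overlap. The log2 fold change was 2.09 ± 0.07 (SE), a 4.26-fold rise (adjusted p = 5.3e-13, edgeR). It ranged from 1.94 to 2.14 over the 27 alternatives and passed in each. With CGRP in both arms the values were 19.7, 18.02 and 19.03 CPM in high glucose and 58.2, 52.8 and 59.5 CPM in deprived medium. That difference was 1.59 ± 0.07 (SE; edgeR adjusted p = 1.0e-11).

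MT1E, a metallothionein of the MT1 group, read 107.0, 102.4 and 106.5 CPM in the high-glucose controls and 327, 323 and 306 CPM in the deprived controls. All deprived libraries were higher. Its log2 fold change was 1.60 ± 0.15 (SE), a 3.03-fold rise (edgeR adjusted p = 1.6e-07), and it passed in all 27 alternatives. MT2A, the most abundant metallothionein, read 523, 572 and 549 CPM in the high-glucose controls and 683, 668 and 642 CPM in the deprived controls. These groups did not overlap either, but the difference of 0.28 ± 0.16 (SE) did not pass (edgeR adjusted p = 0.14). Without the 2 libraries that stand apart, neither of which is in these groups, MT2A passed at 0.25 (edgeR adjusted p = 5.8e-07); leaving out deprived CGRP replicate 2 alone gave an adjusted p of 0.018.

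MT1F and MT1X had low counts. MT1F read 3.61, 3.72 and 3.63 CPM in high glucose and 7.25, 6.55 and 5.17 CPM in deprived medium, without CGRP. It rose by 0.79 ± 0.22 on the log2 scale (SE; edgeR adjusted p = 0.0058). MT1X read 1.17, 1.21 and 1.92 CPM against 2.77, 1.90 and 2.07 CPM, with overlapping groups, and 0.65 ± 0.32 did not pass (edgeR adjusted p = 0.087). It passed in 5 of 27 alternatives, among them without high-glucose control replicate 3 (0.92, adjusted p = 0.040), without 2-DG control replicate 2 (0.63, adjusted p = 0.043) and without both libraries that stand apart (0.63, adjusted p = 0.0024). Of the distinct stretches of 50 bases in MT1X transcripts 43.6% also occur in another gene, 35.3% in AC026461.1, which had 0 counts in all 18 libraries. The share was 7.10% for MT1E, 4.24% for MT2A, 3.27% for MT1F and 16.5% for MT1G. Values of MT1X, its low level included, can thus depend most on how shared reads were assigned. MT1M, the other tested coding family member, rose by 1.54 ± 0.28 (SE; edgeR adjusted p = 1.6e-04). Its mean was 0.750 CPM in the high-glucose controls and 2.18 CPM in the deprived controls, against 105 and 318 CPM for MT1E. Of 1098 distinct stretches of 50 bases in MT1E transcripts 33 also occur in MT1M. What part MT1E reads had in the MT1M value was not tested.

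MTF1, the zinc-sensing factor, read 34.5, 35.3 and 32.1 CPM in high glucose and 45.6, 46.0 and 44.7 CPM in deprived medium, without CGRP. All deprived libraries were higher, but the difference of 0.42 ± 0.18 (SE) missed the threshold (edgeR adjusted p = 0.056). It passed in 6 of 27 alternatives, among them without deprived CGRP replicate 2 (0.39, adjusted p = 0.0027), without 2-DG control replicate 2 (0.39, adjusted p = 0.044) and without both (0.39, adjusted p = 8.5e-09). With a replicate block it passed as well (0.42, adjusted p = 0.042). Under CGRP it read 33.7, 27.9 and 30.6 CPM in high glucose and 42.4, 22.1 and 41.2 CPM in deprived medium, the middle value being the library that stands apart. That difference was 0.20 ± 0.18 (SE; edgeR adjusted p = 0.36), and 0.42 (adjusted p = 0.0041) without that library.

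Under CGRP deprivation raised 4 of the 7 genes, with 60.4% of all genes passing, 31.9% upward. They were SLC30A1, MT1E, MT1F and MT2A. Without both libraries that stand apart all 6 tested genes passed, 5 upward and 1 downward, where 69.9% of all genes did. MT2A read 594, 616 and 560 CPM in high glucose and 733, 1205 and 710 CPM in deprived medium. The difference of 0.58 ± 0.16 (SE; edgeR adjusted p = 0.0044) became 0.27 (adjusted p = 1.3e-06) without both libraries that stand apart, and did not pass with only the groups compared in the fit (0.54, adjusted p = 0.065). MT1E read 151, 147 and 148 CPM against 363, 588 and 345 CPM, which gave 1.54 ± 0.15 (SE; edgeR adjusted p = 2.3e-07) and 1.23 without both. MT1F gave 1.07 ± 0.22 (SE) and 0.65 without both. MT1X read 2.85, 2.75 and 2.90 CPM against 1.48, 3.04 and 1.69 CPM, so that the groups overlapped through the library that stands apart. It did not pass (-0.46 ± 0.29, SE; edgeR adjusted p = 0.19), and it passed downward without deprived CGRP replicate 2 (-0.86, adjusted p = 0.017) and without both (-0.86, adjusted p = 1.4e-04).

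**Figure D2:**
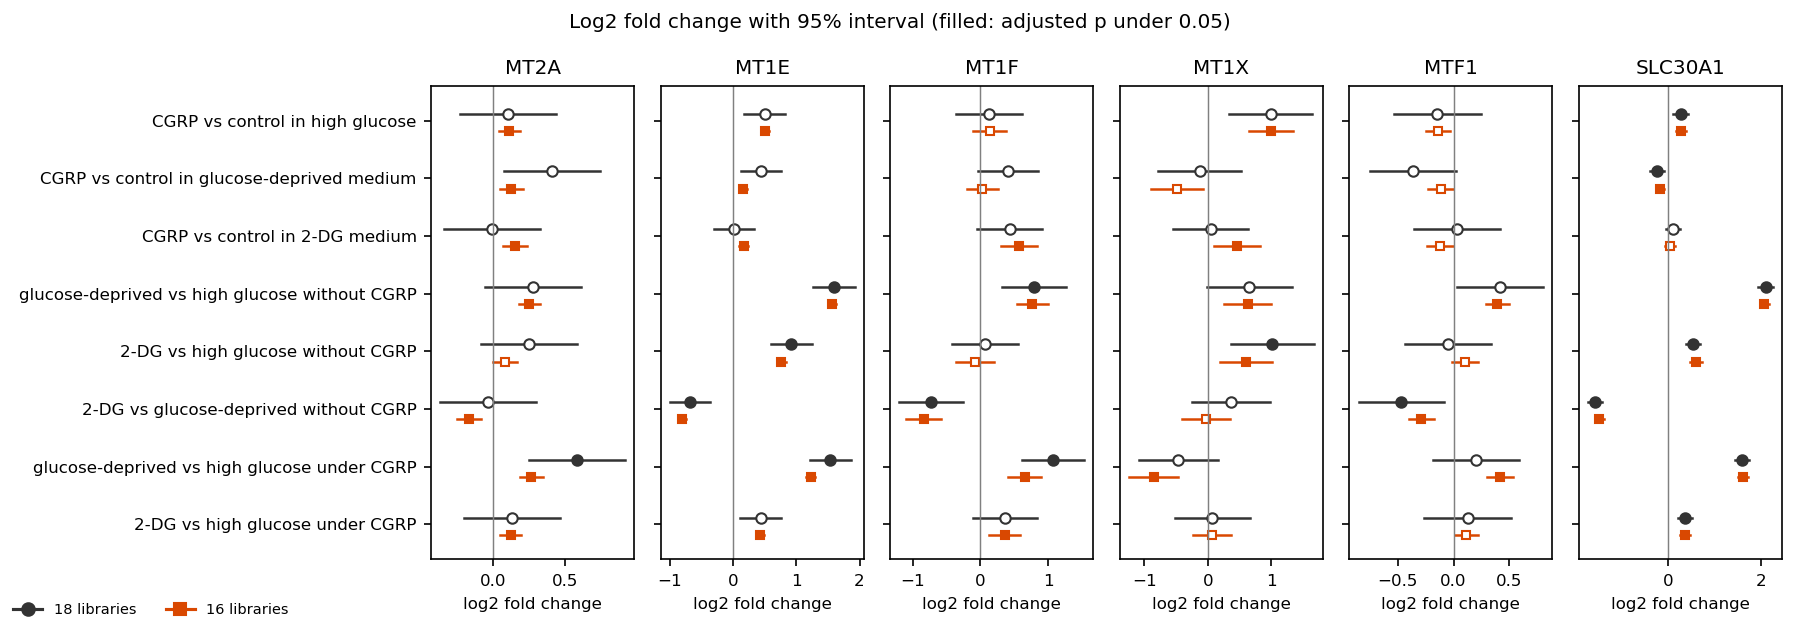
Log2 fold change (horizontal axes, own scale per gene) of the 6 tested genes in the 8 pairwise comparisons (vertical axis), with 95% intervals; dark circles are the fit of 18 libraries, orange squares the fit of 16 libraries without those that stand apart, and filled symbols passed at an adjusted p under 0.05. SLC30A1 and MT1E moved far from 0 with deprivation in both fits, while intervals of the metallothioneins and MTF1 narrowed without the 2 libraries.

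The summed counts of the 5 metallothioneins do not depend on how counted reads were split among these 5 genes. They can still depend on reads shared with genes outside the 5, such as AC026461.1 for MT1X and MT1JP and MT1M for MT1E. Whether reads shared between genes were counted at all is not known. Without CGRP the summed counts came to 658 ± 22.5 CPM (SD, n = 3) in high glucose and 992 ± 33.1 CPM in deprived medium. This rise of 0.59 ± 0.16 on the log2 scale (SE) passed (edgeR adjusted p = 0.0037). Under CGRP the sum was 745 ± 27.8 CPM in high glucose and 1325 ± 419 CPM in deprived medium (0.83 ± 0.16, SE; edgeR adjusted p = 2.3e-04), or 0.51 on the log2 scale without deprived CGRP replicate 2. The 2-DG control libraries summed to 779, 1032 and 756 CPM, the middle value in the library that stands apart, and those with CGRP to 892, 844 and 833 CPM. The CGRP difference in 2-DG medium was 0.0006 on the log2 scale (edgeR adjusted p = 0.999), and 0.16 (adjusted p = 3.6e-04) without both libraries that stand apart.

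The share of MT1E in the sum differed between the media. MT1E made up 16.9%, 15.1% and 16.1% of metallothionein counts in the high-glucose controls and 32.1%, 32.3% and 32.0% in the deprived controls. The share was 23.0%, 23.1% and 23.8% in the 2-DG controls, and these 3 groups did not overlap. In high glucose with CGRP it was 20.1%, 19.1% and 20.7%, above every library of the matching control. With CGRP it was 32.9%, 32.5% and 32.4% in deprived medium, including the library that stands apart, and 22.7%, 23.9% and 24.0% in 2-DG medium. Accordingly there were 5.21 ± 0.36 (SD, n = 3) MT2A counts per MT1E count in high glucose and 2.09 ± 0.014 in deprived medium, both without CGRP. An exact two-sided permutation test of 3 libraries against 3 cannot go below p = 0.1, and it gave 0.1 in 5 of 6 comparisons of the share (adjusted p = 0.12) and 0.8 for CGRP in 2-DG medium.

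**Figure D3:**
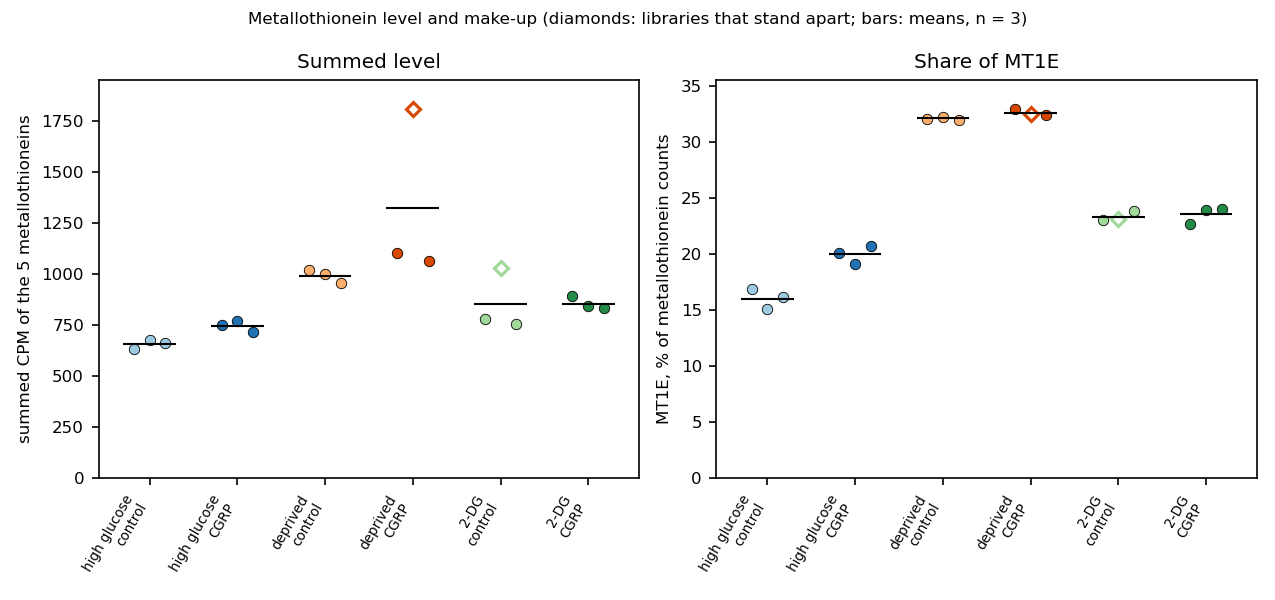
Left, summed CPM of the 5 metallothioneins, and right, MT1E as a percentage of their counts (vertical axes from 0), for each library by group; diamonds are the libraries that stand apart and bars are means (n = 3). The diamond of the deprived CGRP group lies at 1809 CPM on the left, above its group mates at 1064 and 1103 CPM, and at 32.5% on the right, between them.

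With 2-DG in place of high glucose, without CGRP, 3 of the 7 genes rose: SLC30A1, MT1E and MT1X. Of all tested genes 13.8% passed, 7.99% upward. SLC30A1 read 23.1, 20.3 and 24.6 CPM in 2-DG medium, above every high-glucose control, and rose by 0.53 ± 0.07 (SE; edgeR adjusted p = 1.1e-04). MT1E read 179, 238 and 180 CPM and rose by 0.92 ± 0.15 (SE; edgeR adjusted p = 6.6e-04), or by 0.77 without both libraries that stand apart. MT1X read 2.03, 4.38 and 2.31 CPM, the middle value in the library that stands apart, and rose by 1.01 ± 0.31 (SE; edgeR adjusted p = 0.038). Its call was lost in 7 of 27 alternatives, namely with no filter on low counts (adjusted p = 0.10), with only the groups compared (0.11), without 2-DG control replicate 2 (0.59, adjusted p = 0.20), without high-glucose control replicate 1 (0.14) or 2 (0.14), without high-glucose CGRP replicate 3 (0.0501) and without deprived control replicate 3 (0.051). It passed at 0.59 (adjusted p = 0.021) without both libraries that stand apart. MT2A (595, 785 and 570 CPM), MT1F (3.20, 4.52 and 3.79 CPM) and MTF1 (37.4, 25.3 and 35.9 CPM) overlapped with the high-glucose controls and did not pass. Without both libraries that stand apart 3 of the 7 genes again passed upward, where 18.1% of all genes did.

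Set against deprived medium, 2-DG medium without CGRP held less of 4 of the 7 genes, with 57.5% of all genes passing and 28.6% downward. SLC30A1 was lower by -1.56 ± 0.07 (SE; edgeR adjusted p = 1.6e-11) and MT1E by -0.68 ± 0.15 (adjusted p = 0.0011). MT1F was lower by -0.72 ± 0.22 (adjusted p = 0.010), a call lost without deprived control replicate 1 (0.061) or 2-DG control replicate 1 (0.051). MTF1 was lower by -0.47 ± 0.18 (adjusted p = 0.037), a call lost in 6 of 27 alternatives, namely with no filter on low counts (0.14), with total counts (-0.37, adjusted p = 0.13), without any of the 3 deprived control libraries (adjusted p from 0.080 to 0.095) or without 2-DG control replicate 2 (-0.29, adjusted p = 0.19). It passed at -0.29 (adjusted p = 2.1e-05) when both libraries that stand apart were left out. In that fit 5 of the 7 genes passed downward, where 32.8% of all genes did. Under CGRP, 2-DG against high glucose raised 1 of the 7 genes, SLC30A1, where 2.39% of all genes passed, 1.52% upward. Its difference was 0.38 ± 0.07 (SE; edgeR adjusted p = 0.010), lost without 2-DG CGRP replicate 2 (0.053) or 3 (0.055) or high-glucose CGRP replicate 2 (0.066). Without both libraries that stand apart 4 of the 7 passed, all upward, where 10.5% of all genes passed upward. MT1E was then 0.43 higher (adjusted p = 4.0e-14; 0.0031 without deprived CGRP replicate 2 alone), MT1F 0.36 (adjusted p = 0.021) and MT2A 0.12 (adjusted p = 0.016).

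The comparisons between media share libraries, so the levels are also given in order. SLC30A1 stood at 15.6 ± 0.82 CPM (SD, n = 3) in the high-glucose control, 18.9 ± 0.84 in high glucose with CGRP, 22.6 ± 2.20 in the 2-DG control, 24.5 ± 1.03 in 2-DG with CGRP, 56.8 ± 3.54 in deprived medium with CGRP and 66.6 ± 0.98 in the deprived control. Of neighbours in this order only the 2 groups in 2-DG medium overlapped. MT1E stood at 105 ± 2.55, 149 ± 2.23, 199 ± 33.8, 202 ± 1.40, 432 ± 135 and 318 ± 11.1 CPM in the same groups in the same sequence. Its deprived groups were thus in the reverse order, and again only the 2-DG groups overlapped.

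CGRP was compared with control within each medium, and in high glucose 1 of the 7 genes passed, upward, where 4.33% of all genes passed and 2.04% upward. That gene was SLC30A1, which rose by 0.27 ± 0.07 (SE; edgeR adjusted p = 0.042), with all 3 CGRP libraries above all 3 controls. The call was lost in 12 of 27 alternatives, among them each of the 6 high-glucose libraries left out in turn, each 2-DG CGRP library and 2-DG control replicate 1 (adjusted p from 0.052 to 0.20). The fold change itself stayed between 0.24 and 0.32 on the log2 scale. MT1E was also higher in all 3 CGRP libraries in high glucose, by 0.50 ± 0.15 (SE), and missed the threshold (edgeR adjusted p = 0.082). It passed in 8 of 27 alternatives, among them without deprived CGRP replicate 2 (adjusted p = 4.5e-04) or 3 (0.0496), without 2-DG control replicate 2 (0.049) and without both libraries that stand apart (0.51, adjusted p = 2.9e-16). MT1X was higher in all 3 as well, by 0.99 ± 0.31 (SE; edgeR adjusted p = 0.092), and passed in 6 of 27 alternatives, among them without either or both of the libraries that stand apart (0.99, adjusted p = 3.0e-05 without both). MT2A (0.11), MT1F (0.13) and MTF1 (-0.14) did not pass. Without both libraries 4 of the 7 genes passed, all upward, where 9.14% of all genes passed upward.

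In deprived medium 1 of the 7 genes passed, downward, where 13.0% of all genes passed and 6.58% downward. SLC30A1 fell from 66.2, 67.8 and 66.0 CPM to 58.2, 52.8 and 59.5 CPM, by -0.23 ± 0.07 (SE; edgeR adjusted p = 0.035). All CGRP libraries were lower, and the lowest is the library that stands apart. The call was lost in 9 of 27 alternatives, among them without deprived CGRP replicate 1 (0.056) or 2 (-0.17, adjusted p = 0.078), and without any of the 3 deprived controls (0.092 to 0.13), but held without both libraries that stand apart (-0.17, adjusted p = 0.0029). MT1E was higher in all 3 CGRP libraries, by 0.44 ± 0.15 (SE; edgeR adjusted p = 0.066), of which 0.16 remained without both libraries that stand apart (adjusted p = 9.9e-05). It passed in 8 of 27 alternatives, among them without deprived CGRP replicate 1 (0.56, adjusted p = 0.031) or 3 (0.59, adjusted p = 0.019), fits in which the library that stands apart has more weight, and without 2-DG control replicate 2 (0.45, adjusted p = 0.039). MT2A differed by 0.41 ± 0.16 (SE; edgeR adjusted p = 0.10), and by 0.13 (adjusted p = 0.018) without both; it also passed without deprived CGRP replicate 1 (0.54, adjusted p = 0.044) or 3 (0.56, adjusted p = 0.035). MTF1 (-0.36), MT1F (0.41) and MT1X (-0.13) did not pass. When both libraries were left out 3 of the 7 genes passed, where 28.7% of all genes did.

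In 2-DG medium 0 of the 7 genes passed with CGRP, by edgeR, where 12.2% of all genes did. Nor did any of the 6 tested genes have an unadjusted p under 0.05; the lowest was 0.073, for MT1F, and the DESeq2 Wald test called 0 as well. MT1F was higher in all 3 CGRP libraries and passed without deprived CGRP replicate 2 (0.43, adjusted p = 0.023). MT1E stood at 203, 202 and 200 CPM with CGRP, inside the range of its control libraries. MT2A stood at 680, 634 and 625 CPM and SLC30A1 at 23.3, 25.0 and 25.2 CPM, both also overlapping with their controls. Without both libraries that stand apart 4 of the 7 passed, all upward, where 12.3% of all genes passed upward. These were MT1F (0.57, adjusted p = 8.3e-04), MT1X (0.46, adjusted p = 0.046), MT1E (0.17, adjusted p = 9.9e-05) and MT2A (0.15, adjusted p = 0.0045).

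The direction of the SLC30A1 response to CGRP differed between media. The difference of its CGRP effects, deprived minus high glucose, was -0.50 ± 0.10 (SE; edgeR interaction, adjusted p = 0.015), and it was the 1 of 7 genes that passed, where 1.55% of all genes did and 0.650% downward. The call was lost without high-glucose control replicate 2 (-0.48, adjusted p = 0.054) or high-glucose CGRP replicate 1 (-0.47, adjusted p = 0.055). With total counts in place of TMM scaling it was lost too (-0.48, adjusted p = 0.063), and it held without both libraries that stand apart (-0.45, adjusted p = 1.4e-05). In that last fit MT1E (-0.34, adjusted p = 3.0e-07) and MT1X (-1.48, adjusted p = 1.0e-04) passed too, so 3 of the 7 genes did, all downward, where 13.5% of all genes did and 7.67% downward. The difference 2-DG minus high glucose passed for 0 of the 7 genes by edgeR, where 0.391% of all genes passed. The DESeq2 Wald test also called 0, and 2 of the tested genes, MT1E and MT1X, had an unadjusted p under 0.05, of 0.038 each. MT1E passed without deprived CGRP replicate 2 (-0.49, adjusted p = 0.031) and without both libraries (-0.34, adjusted p = 8.6e-07), then as 1 of the 7 genes where 3.59% of all genes passed downward.

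In both libraries that stand apart the 4 tested metallothioneins were higher, and MTF1 and SLC30A1 lower, than in their group mates. Against its 2 group mates, deprived CGRP replicate 2 was higher by 0.74 on the log2 CPM scale for MT2A, 0.73 for MT1E, 0.97 for MT1F and 0.91 for MT1X. It was lower by -0.92 for MTF1 and -0.16 for SLC30A1. In 2-DG control replicate 2 the same values were 0.43, 0.41, 0.37 and 1.00, and -0.53 and -0.23. The exons of MT1E, MT2A, MT1X and MT1F come to 1052, 1299, 1773 and 1889 bases, those of SLC30A1 to 5474 and those of MTF1 to 8024. What set these libraries apart was not tested.

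**Figure D4:**
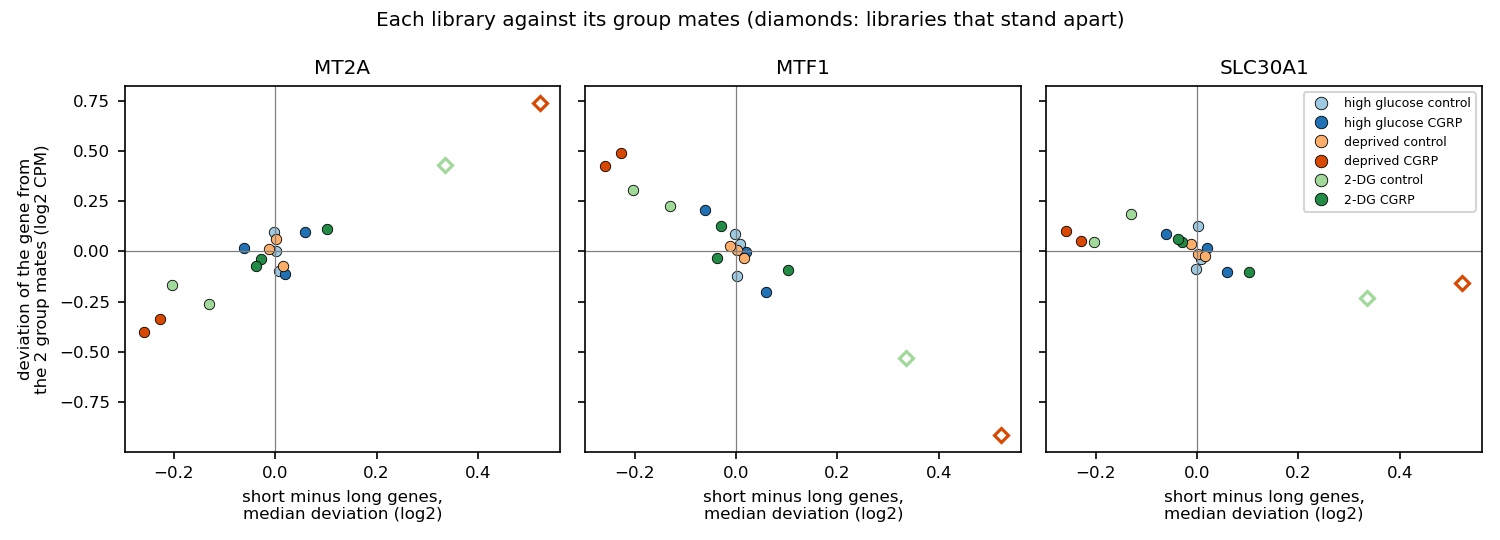
Deviation of MT2A, MTF1 and SLC30A1 in each library from its 2 group mates (vertical axis, log2 CPM) against the median deviation of short minus that of long genes in the same library (horizontal axis, log2); points are libraries coloured by group, and diamonds those that stand apart. The diamonds lie at the right, high for MT2A (0.74 and 0.43) and low for MTF1 (-0.92 and -0.53), with SLC30A1 nearer 0 (-0.16 and -0.23); the 2 mates of each diamond are displaced the other way because it is part of their reference.

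Other zinc transporters gave context for SLC30A1. Of 11 zinc exporters 6 were tested, and 5 rose in deprived medium without CGRP, with a median of 0.43 against 0.02 for all tested genes, where 60.6% of all genes passed and 31.0% upward. SLC30A1 led. SLC30A5 and SLC30A7, which load zinc into the secretory pathway, rose by 0.68 and 0.61 (edgeR adjusted p = 1.9e-09 and 1.1e-06), and SLC30A9 rose by 0.15. In 2-DG medium 3 of the 6 rose (SLC30A5 by 0.42, SLC30A7 by 0.26 and SLC30A1), where 13.8% of all genes passed and 7.99% upward. The counts were 5 and 4 of the 6 without both libraries that stand apart. In that fit 72.4% and 32.5% of all genes passed, 36.1% and 18.1% upward. Here and below, a share given without a direction counts genes that passed in either direction. CGRP in 2-DG medium lowered 1 of the 6, SLC30A5 (-0.29, edgeR adjusted p = 5.6e-04), where 12.2% of all genes passed, and 3 of the 6 without both libraries, where 28.4% did.

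Of 14 zinc importers 11 were tested, and in deprived medium without CGRP 5 rose and 2 fell (median 0.09), again beside 60.6% of all genes. SLC39A14, a plasma membrane importer of zinc and iron, rose from 160 to 429 CPM (1.42 ± 0.08, SE; edgeR adjusted p = 3.6e-10). SLC39A13 rose by 0.75. SLC39A10, an importer known to be repressed by MTF1 when zinc is ample, fell from 52.3 to 17.7 CPM (-1.56 ± 0.14, SE; edgeR adjusted p = 5.1e-08). SLC39A8 fell by 0.77 on the log2 scale. In 2-DG medium 7 of the 11 rose and 0 fell (median 0.28), among them SLC39A7 by 0.45 and SLC39A6 by 0.39, where 13.8% of all genes passed and 7.99% upward; 8 rose without both libraries that stand apart, where 18.1% passed upward. CGRP lowered 5 of the 11 in 2-DG medium, such as SLC39A7 (-0.36, edgeR adjusted p = 2.6e-04) and SLC39A14 (-0.33, adjusted p = 0.015), where 12.2% of all genes passed. By edgeR 0 passed with CGRP in high glucose (1 at an unadjusted p under 0.05) or in deprived medium (0). Leaving out both libraries that stand apart, 8 fell with CGRP in 2-DG medium (28.4% of all genes passed), 2 fell in high glucose (19.1%), and 1 rose and 1 fell in deprived medium (28.7%). After deprivation 5 rose and 4 fell in that fit (72.4%).

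**Figure D5:**
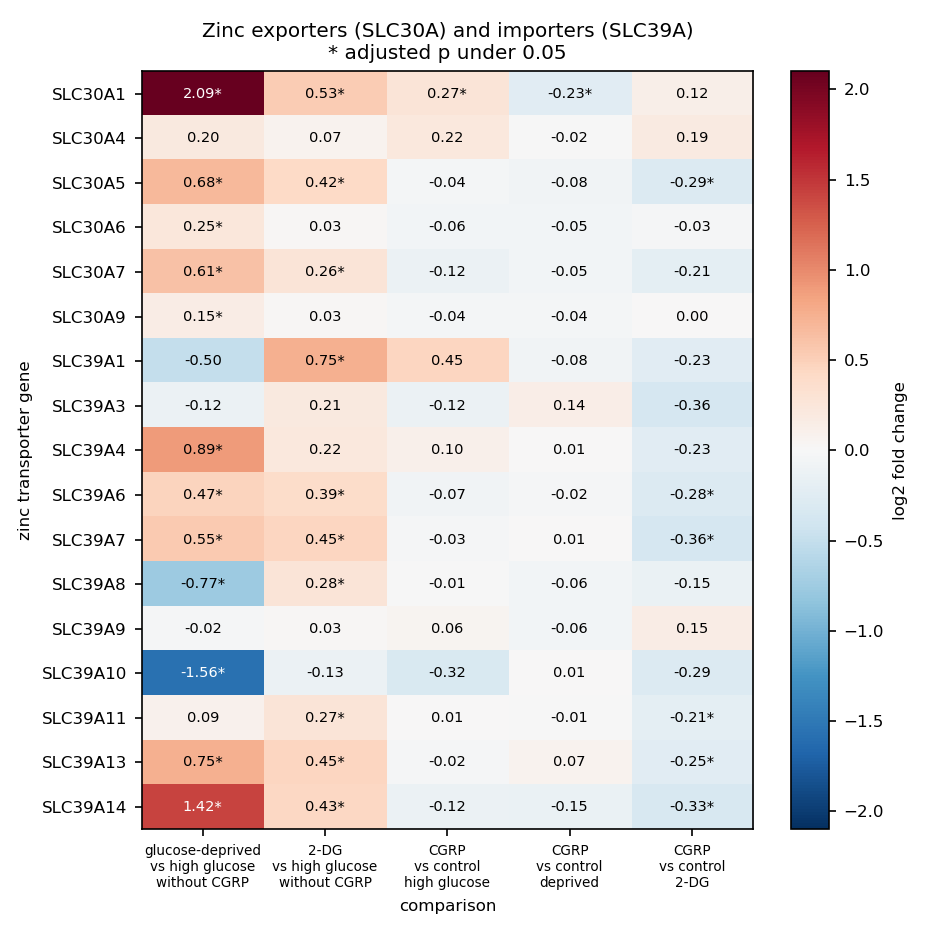
Log2 fold change (colour and number) of the 6 tested zinc exporters and 11 tested zinc importers (vertical axis) in 5 comparisons (horizontal axis), with a star at an adjusted p under 0.05. SLC30A1 (2.09) and SLC39A10 (-1.56) are at the ends of the deprivation column, and 5 importers carry a star in the column of CGRP in 2-DG medium.

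3 other groups of genes bear on what is known to drive metallothioneins, and their part in the results was not tested. Of 10 genes induced by metals and oxidants, deprivation without CGRP raised 7 and lowered 2 (median 0.81), where 60.6% of all genes passed and 31.0% upward. Without both libraries that stand apart 7 rose and 3 fell, where 72.4% of all genes passed and 36.1% upward. The rises included HSPA6 (3.84), the glutamate-cystine exchanger subunit SLC7A11 (2.42), the haem oxygenase HMOX1 (2.36) and the glutathione synthesis enzyme GCLC (1.96). The inducible heat shock genes HSPA1A and HSPA1B, near-identical copies whose reads can be exchanged, were the 2 that fell and are named after their values were seen. With 2-DG 0 of the 10 passed by edgeR without CGRP, 3 had an unadjusted p under 0.05, and 3 rose and 1 fell without both libraries that stand apart, where 32.5% of all genes passed. CGRP lowered 3 of the 10 in high glucose, SLC7A11 (-1.02), TXNRD1 (-0.35) and GCLM (-0.31), where 4.33% of all genes passed. In deprived medium it raised 2, HMOX1 (0.83) and GCLM (0.48), where 13.0% passed. In 2-DG medium it lowered 3, SLC7A11 (-1.13), HSPA1A (-0.40) and GCLC (-0.26), with a median of -0.18, where 12.2% passed. With both libraries left out 4 fell in high glucose, 5 rose in deprived medium and 6 fell in 2-DG medium, where 19.1%, 28.7% and 28.4% of all genes passed.

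Of 8 glucocorticoid-induced genes 7 were tested, and deprivation without CGRP raised 3 and lowered 2 (median 0.07), where 60.6% of all genes passed. The counts were the same without both libraries that stand apart, where 72.4% of all genes passed. ERRFI1, an inhibitor of EGF receptor signalling, rose by 2.91 and the phosphatase DUSP1 by 1.60, while SGK1 fell by 1.75 and FKBP5 by 0.76 on the log2 scale. In 2-DG medium without CGRP 1 rose, ERRFI1 (0.29), and 4 fell (median -0.23), among them KLF9 (-0.82), PER1 (-0.49) and TSC22D3 (-0.42), where 13.8% of all genes passed. Without both libraries 1 rose and 6 fell in 2-DG medium, where 32.5% passed. CGRP lowered ERRFI1 in high glucose (-0.38), deprived medium (-1.07) and 2-DG medium (-0.42). In all, 1 of the 7 fell in high glucose, 2 fell in deprived medium, and 2 rose and 1 fell in 2-DG medium. Of all genes 4.33%, 13.0% and 12.2% passed in these comparisons. Without both libraries that stand apart 1 rose and 4 fell in high glucose, and 1 rose and 2 fell in deprived medium. In 2-DG medium 3 rose and 1 fell in that fit. There 19.1%, 28.7% and 28.4% of all genes passed.

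Of 9 copper-handling genes 2 rose and 3 fell after deprivation without CGRP (median -0.31), near the 60.6% of all genes that passed. Without both libraries that stand apart 3 rose and 5 fell, where 72.4% of all genes passed. The falls in the fit of 18 libraries were the copper chaperones ATOX1 (-0.82) and COX17 (-0.59) and the superoxide dismutase SOD1 (-0.77). The copper transporter SLC31A2 rose by 0.60. With CGRP 0 of the 9 passed in any medium by edgeR, and 0 had an unadjusted p under 0.05. Of all genes 4.33% passed with CGRP in high glucose, 13.0% in deprived medium and 12.2% in 2-DG medium. Without both libraries 1 rose and 1 fell in high glucose, 1 rose and 4 fell in deprived medium, and 1 rose and 1 fell in 2-DG medium. In that fit 19.1%, 28.7% and 28.4% of all genes passed.

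The genes whose 6 group means ran closest to MT2A, as root mean square differences of centred log2 CPM, were LAMTOR3 (0.0457), RPL23A (0.0510), PPIC (0.0524), LBX2 (0.0524) and NQO1 (0.0536). For SLC30A1 the closest were the amino acid transporter SLC38A4 (0.0981), EFCAB2 (0.137), the ER co-chaperone DNAJC3 (0.143), ZSCAN12P1 (0.143) and the amino acid transporter SLC38A2 (0.145). All of these means include the libraries that stand apart.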

How the data were processed

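RNA of 18 Cal27 cultures was sequenced, and the authors deposited raw read counts per Ensembl gene ID and library. HISAT2 2.0.4 is named for alignment, and both hg19 and GRCh38 as builds, per the submitters' processing notes. For the counting tool, annotation and strand setting the sources used here give nothing. Of 60683 IDs 60370 matched a symbol. Groups came from sample titles and the design text, which calls the repetitions independent. Counts were TMM-scaled and tested with edgeR 4.0.16 (robust quasi-likelihood fit, 1 coefficient for each of 6 groups, filterByExpr, 12 residual degrees of freedom, R 4.3.3), with Benjamini-Hochberg adjustment over 18159 genes and a threshold of 0.05. Precision at 28038260 to 32661768 counts per library is given by the biological coefficient of variation of 9.44%. CPM use TMM library sizes. Levels per kilobase use GENCODE 29 exon lengths, joined over all transcripts of a gene. They can be too low where the transcript expressed is shorter. The test was checked on simulated data. Before averaging, libraries were compared with chi-square tests, and no pair agreed within sampling noise.

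The members and lists were chosen with earlier results of these data known. The text names all 7 members, at most the 4 genes of a list with the smallest adjusted p in a comparison, and the 5 genes most like MT2A and SLC30A1 by the smallest difference of centred group means. The alternatives were DESeq2 size factors (RLE), the DESeq2 1.42.0 Wald test, no filter, a stricter filter (at least 3 libraries above 1 CPM with the mean above 2), only the groups compared, a replicate block, total counts, each library left out, and both libraries that stand apart left out. An offset for a trend with exon length was added after seeing the data. The 2 libraries that stand apart were also picked from these data, by their place on the second principal component. Leaving both out keeps only 2 libraries in each of their groups, and it lowers the estimated spread. The SE of MT1E with CGRP in high glucose, for example, went from 0.15 to 0.031. Calls gained without both libraries are thus no independent check.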

Additional observations from a re-analysis of the deposited data

Results flagged for a closer look

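The effect of CGRP in deprived medium minus that in high glucose passed the interaction test (edgeR, adjustment over all tested genes) for SLC30A1 and for 5 genes of the lists, where 1.55% of all genes passed. Deprived CGRP replicate 2, which stands apart, enters this difference, so each value is also given without both libraries that stand apart, a fit in which 13.5% of all genes passed. For SLC30A1 it was -0.50 (adjusted p = 0.015; -0.45 without both), with CGRP libraries above the controls in 3 of 3 in high glucose and below them in 3 of 3 in deprived medium. For the glutathione synthesis subunit GCLM it was 0.79 (adjusted p = 3.6e-04; 0.85 without both), for HMOX1 0.77 (adjusted p = 0.0025; 0.81) and for the thioredoxin reductase TXNRD1 0.62 (adjusted p = 0.021; 0.75). For ERRFI1 it was -0.70 (adjusted p = 0.0091; -0.56) and for the keratin KRT6A -0.39 (adjusted p = 0.022; -0.33). All 6 passed without both libraries. The test then called 7 of 10 metal-induced genes (3 with all libraries), 4 of 8 squamous markers (1), 4 of 9 copper genes (0) and 2 of 7 glucocorticoid-induced genes (1).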

How the results depend on the processing

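The rises of SLC30A1 and MT1E in deprived medium passed in all 27 alternatives, while many other calls changed when 1 or both of the libraries that stand apart were left out. The cause of the changes below was not tested. Counts are those of the 7 genes that passed the threshold. The share of all genes that passed also changed with the setting, so these changes cannot be read as particular to the 7 genes. For CGRP in high glucose, deprived and 2-DG medium that share was 4.33%, 13.0% and 12.2% with all libraries. It was 19.1%, 28.7% and 28.4% without both libraries that stand apart. CGRP in high glucose called 1 gene, 3 with the DESeq2 test, 0 without a filter, 4 with only the groups compared, 3 with the length offset, 4 without both libraries that stand apart and 0 to 3 with single libraries left out. CGRP in deprived medium called 1, against 2, 0, 0, 2, 3 and 0 to 3 under the same settings. CGRP in 2-DG medium called 0, 4 without both libraries and 0 to 1 with single libraries left out. Deprivation without CGRP called 3, and 6 with only the groups compared, with the length offset and without both; single libraries left out gave 3 to 5. Of 2-DG against deprived medium 4 were called, and 2 to 4 with single libraries left out. Of 2-DG against high glucose under CGRP 1 was called, and 3 with only the groups compared, 2 with the length offset, 4 without both and 0 to 2 with single libraries left out. The interaction in deprived medium called 1, 0 with total counts, 3 without both and 0 to 1 with single libraries left out. That in 2-DG medium called 0, 1 without both and 0 to 1 with single libraries left out. The number of all genes passing moved too over the 27 alternatives. For CGRP it ran from 353 to 3653 in high glucose, 141 to 5307 in deprived medium and 1194 to 5249 in 2-DG medium. For deprivation without CGRP it ran from 8561 to 13377, and for 2-DG against deprived medium from 8300 to 12351. For 2-DG against high glucose under CGRP it ran from 157 to 3598. The interactions gave 162 to 2500 in deprived and 13 to 1092 in 2-DG medium.

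The sum of metallothioneins newly passed in these cases. With only the groups compared these were CGRP in high glucose (0.19) and 2-DG against high glucose under CGRP (0.19). With total counts it was CGRP in deprived medium (0.43). With the length offset these were CGRP in deprived medium (0.28), 2-DG against high glucose (0.37) and 2-DG against deprived medium (-0.23). Without both libraries that stand apart these were CGRP in high glucose (0.19), deprived (0.14) and 2-DG medium (0.16), 2-DG against high glucose without (0.22) and with CGRP (0.19), and 2-DG against deprived medium (-0.35). Leaving out deprived CGRP replicate 1 (0.55) or 3 (0.57) it passed for CGRP in deprived medium, and leaving out deprived CGRP replicate 2 (0.38) for 2-DG against high glucose. With single libraries left out the sum for CGRP in deprived medium ran from 0.14 to 0.57 and for 2-DG against high glucose from 0.22 to 0.46; for CGRP in 2-DG medium, close to 0, it changed sign and ran from -0.082 to 0.16. Its interaction in deprived medium turned from 0.24 to -0.050 without both, and ran from -0.050 to 0.38 with single libraries left out.

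Sign changes of single genes were of differences that did not pass with all 18 libraries. MT2A with CGRP in 2-DG medium (-0.01) turned to 0.014 with RLE, DESeq2 and the stricter filter, 0.0031 with only the groups compared, 0.0093 with the replicate block, 0.043 with total counts, 0.044 with the length offset, and 0.15 without both, and ran from -0.094 to 0.15 with single libraries left out. MT2A in 2-DG against deprived medium (-0.03) was 0.058 with total counts and ran from -0.17 to 0.054. Without both libraries MTF1 turned to -0.12 with CGRP in 2-DG medium and to 0.10 for 2-DG against high glucose, MT1F to -0.074 for the latter and MT1X to -0.036 for 2-DG against deprived medium. With single libraries left out MTF1 ran from -0.12 to 0.13 and -0.15 to 0.10 in these, MT1F from -0.072 to 0.19 and MT1X from -0.033 to 0.57. MT1X ran from -0.49 to 0.069 with CGRP in deprived medium, -0.17 to 0.46 in 2-DG medium and -0.034 to 0.14 for 2-DG against high glucose under CGRP. MT1E ran from -0.056 to 0.17 with CGRP in 2-DG medium and -0.34 to 0.086 for the interaction in deprived medium.

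Total counts in place of TMM moved the median of all genes in deprived against high glucose from 0.02 to -0.13. Replicate numbers did not pair the samples: 2 of 24 same-numbered pairs of libraries correlated above 0.1, and 6 of 24 correlated best with their own number. With the replicate block MTF1 passed in deprived against high glucose (0.42, edgeR adjusted p = 0.042). It changed no other call among the members and their sum. MT1G had 6 counts in all, and MT1X had 35 to 128 counts per library. What kept these counts low was not tested.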
